A study of Mus musculus with 9 samples.

Results

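The comparison described here set lungs taken 48 h after an injection of melanoma exosomes against control lungs, and used 6 of the 9 arrays of the series. Arrays were assigned by their labels: 3 arrays of lungs at 48 h and 3 arrays of control lungs, paired by replicate number. Exosomes are small membrane vesicles that cells release. The source was the B16-F10 line of mouse melanoma, which spreads to the lung, and each dose held 10 µg of exosome protein given through the tail vein. All mice were C57BL/6. The 48 h group and a 24 h group received the exosomes, and the third group was the lung controls, and the sources used here do not say what those mice were injected with. Per the labels, 3 mice served each time point and the work was done in triplicate. Pooling of mice on an array is not described. The labels call each array a biological replicate. The p-values rest on how far the differences between arrays of the same replicate number vary, and that spread may be technical in part. Lungs were measured whole, so fewer cells of a type and less RNA per cell cannot be told apart in any value below.

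Exosomes carry proteins, lipids and RNA from the cell of origin and can be taken up by endothelial cells, macrophages and epithelium of an organ they reach in the blood. In work on metastasis, tumour vesicles are studied for their part in preparing the lung before tumour cells arrive, with attention to vascular leakage, matrix proteins such as fibronectin, lysyl oxidase, and the neutrophil and myeloid proteins S100a8 and S100a9. Circulating leukocytes fill the lung capillaries, so whole-lung RNA also reports on blood cells held there at the moment of collection.

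The 6 arrays were alike in overall brightness and detection. Between 71.5% and 72.6% of the 22690 probe sets (groups of short probes for 1 transcript) were called detected on an array. Log2 signals correlated between 0.9758 and 0.9818 among the 48 h arrays, between 0.9746 and 0.9908 among the control arrays, and between 0.9865 and 0.9924 for arrays with the same replicate number. Principal component 1, with 48.4% of the variance, set both replicate 1 arrays apart, at -25.9 for 48 h and -26.5 for control, from the other 4 arrays, which lay between 4.58 and 18.1. The deposited sample files and the authors' table of the whole series disagree on which array is which. In that table the columns labelled 48 h hold the values of the 24 h files, 1 of them at 22417 of 22690 probe sets and the others at every probe set. The columns labelled control hold those of the 48 h files. Each sample file carries a time of its own (0 h, 24 h or 48 h) that matches its label, so these files were used throughout. Directions below hold for those files: with the table's own labels, 247 of the 284 named genes and 41 of the 51 gene list medians had the opposite sign.

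No single gene separated lungs at 48 h from control lungs once all tests were counted. A probe set entered the test when its detection p-value was under 0.05 on all 3 arrays of either group, which left 15748 probe sets for 9224 genes. None passed a Benjamini-Hochberg adjusted p of 0.05 in limma with the replicate number as a block, and the smallest adjusted p was 0.999. At an unadjusted p under 0.05 there were 648 probe sets (4.11%), with 312 higher (1.98%) and 336 lower (2.13%) at 48 h, where evenly spread p-values would give 787.4. The differences were small: 99.39% of probe sets lay within 0.5 on the log2 scale, and the gene median was -0.00506. Over all genes, 1070 (11.6%) were higher in all 3 pairs and 1139 (12.3%) were lower in all 3. In 210 genes (2.28%) every 48 h array exceeded every control array, and in 194 (2.1%) every 48 h array was below every control array. No value below passed the adjusted test, and unadjusted p-values are given as descriptions. Every per-array value below is a quantile-normalised log2(signal + 16), every fold is 48 h over control with its 95% interval from the same fit, and folds of dim genes are understated by the added 16.

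**Figure D1:**
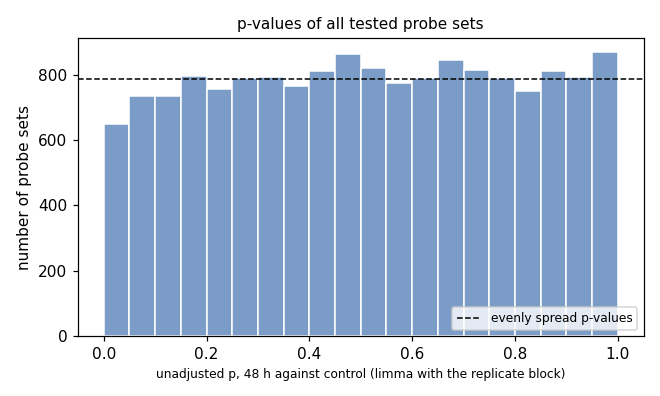
Number of probe sets (vertical axis) by unadjusted p (horizontal axis, bins of 0.05) for 48 h against control, 15748 probe sets. The dashed line marks an even spread of 787.4 a bin, and the leftmost bin, p under 0.05, lies below it with 648.

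The gene with the smallest unadjusted p was Spon2, which encodes spondin 2, a secreted matrix protein with a role in innate immunity. It read 9.05, 6.77 and 6.99 at 48 h (replicates 1, 2 and 3) and 8.42, 6.00 and 6.34 in controls. Replicate 1 was far higher than the others in both groups, so the groups overlapped, while each 48 h array was above its own control by 0.64 to 0.77. The fold was 1.61 (1.38 to 1.88, unadjusted p = 0.000349, adjusted p = 0.999 in limma). Stbd1, a glycogen-binding protein, read 9.81, 10.09 and 9.72 at 48 h and 9.34, 9.46 and 9.20 in controls, with no overlap and a fold of 1.45 (1.24 to 1.7). Iqgap3, a scaffold protein active in proliferating cells, read 6.81, 7.05 and 6.96 at 48 h against 6.18, 6.63 and 6.50 in controls. Ncapg2, a subunit of condensin II that compacts chromosomes, read 7.91, 7.98 and 7.81 at 48 h against 7.23, 7.58 and 7.39. The groups of both genes did not overlap, and both folds were 1.42 (intervals 1.2 to 1.66 for Iqgap3 and 1.19 to 1.69 for Ncapg2). Gjb2, the gap junction protein connexin 26, had a fold of 1.45 (1.2 to 1.77), and Tmlhe, the enzyme that starts carnitine synthesis, 1.34 (1.15 to 1.56). Rbmx, an RNA-binding splicing protein, had a fold of 1.39 (1.19 to 1.62), and Tubb6, a beta tubulin, 1.59 (1.24 to 2.03). The fold of Cdip1, a p53 target tied to cell death, was 1.66 (1.26 to 2.19) on its brighter probe set, and its second probe set had a log2 difference of -0.0534. Glipr2, Zfp322a and Zcchc10 completed the 12, with folds of 1.37, 1.31 and 1.32.

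The 12 genes at the other end were led by Cd79b, a signalling chain of the B cell receptor. It read 8.59, 9.45 and 9.15 at 48 h against 9.09, 9.94 and 9.80 in controls. Each 48 h array was below its own control by 0.49 to 0.65, although the groups overlapped because replicate 1 was low in both. The fold was 0.684 (0.584 to 0.802, unadjusted p = 0.00125, adjusted p = 0.999 in limma). Igkv8-30, a variable segment of the immunoglobulin kappa light chain, read 9.71, 10.34 and 10.12 at 48 h against 11.36, 11.04 and 10.67, without overlap, and its fold was 0.511 (0.348 to 0.752). Ighv14-2, a heavy chain variable segment, had a fold of 0.703 (0.599 to 0.826), and Ly6d, a surface protein of early B lineage cells, 0.738 (0.629 to 0.865). Probe sets for variable segments can bind related segments, so the segment itself is uncertain. Outside the B lineage, Nup188, a protein of the nuclear pore, read 6.85, 7.21 and 6.96 at 48 h against 7.42, 7.62 and 7.65, a fold of 0.679 (0.573 to 0.804) with no overlap. Nap1l5, an imprinted gene of the nucleosome assembly protein family, had a fold of 0.613 (0.499 to 0.753), and Atp6v1b1, a subunit of the vacuolar proton pump, 0.697 (0.58 to 0.839). Anxa9, an annexin, had a fold of 0.706 (0.598 to 0.833) and Map3k8, a kinase of inflammatory signalling, 0.737 (0.625 to 0.869). Banp, Sel1l3 and Rbmx2 had folds of 0.724, 0.715 and 0.759. All of these lay lower in all 3 pairs, as the choice of the 24 genes required.

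**Figure D2:**
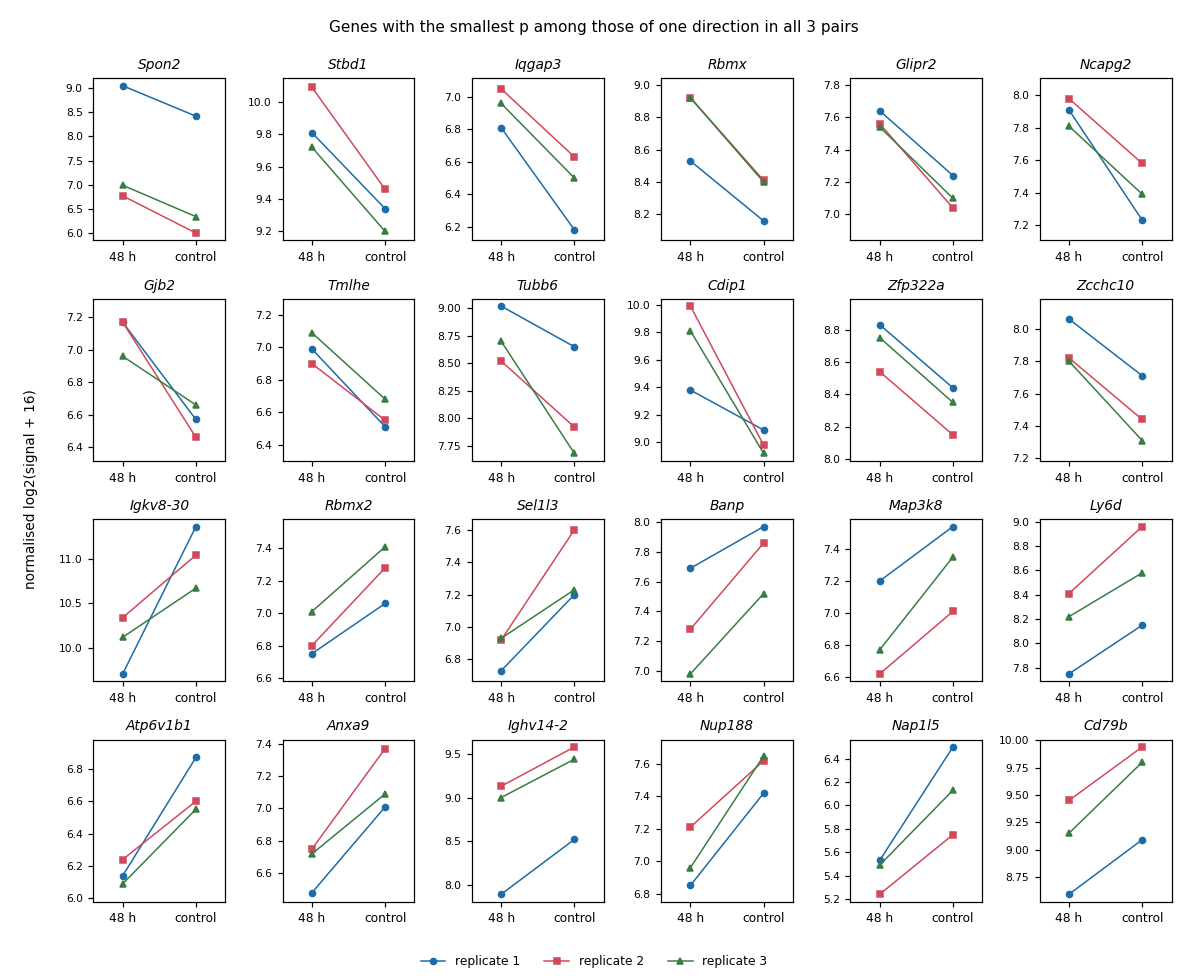
Normalised log2(signal + 16) (vertical axes, each panel with its own range) of the 24 genes with the smallest unadjusted p among those of 1 direction in all 3 pairs, 48 h left and control right, with a line for each replicate pair. Within each panel the 3 lines slope the same way by construction, while in Spon2, Cd79b and Ighv14-2 the distance between replicate 1 and the others exceeds the distance between the groups.

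Among genes of 1 direction in all 3 pairs, the differences of greatest size added a few more. Ighg3, a heavy chain constant region of immunoglobulin G, read 6.56, 6.37 and 7.07 at 48 h against 5.37, 6.11 and 5.53 in controls, a fold of 1.99 (1.31 to 3.02) with no overlap, and 3 other probe sets of that gene were detected on 0 of the 6 arrays. Rps27, a ribosomal protein, had a fold of 1.87 (1.28 to 2.75) that ran from 0.38 to 1.56 on the log2 scale across pairs. Zeb2, a repressor known from epithelial to mesenchymal transition and from myeloid cells, read 10.11, 9.77 and 9.68 at 48 h against 9.84, 9.04 and 8.63, a fold of 1.61 (1.22 to 2.12). Macroh2a2, a histone variant, had a fold of 1.63 (1.22 to 2.17), and Trim30d, a member of an interferon-inducible family, 1.58 (1.02 to 2.46). On the lower side, N4bp3 had a fold of 0.676 (0.526 to 0.868) and Pfkfb2, a regulator of glycolysis, 0.618 (0.404 to 0.945), the last with a second probe set at 0.0294.

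Gene lists for cell types and programmes were read by counts and medians, with 866 of their 1165 different genes tested. The list furthest below the median of all genes was that of B cells, at -0.278, followed by cardiac muscle at -0.25. The lists furthest above were erythroid cells at 0.176, extracellular matrix at 0.143, immediate early genes at 0.142, and cell cycle at 0.139. Without replicate 3 the immediate early median was 0.0391. The pairs agreed for some of these and not for others: the B cell medians of the pairs were -0.284, -0.275 and -0.211, those of cardiac muscle -0.0517, -0.0482 and -0.529.

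**Figure D3:**
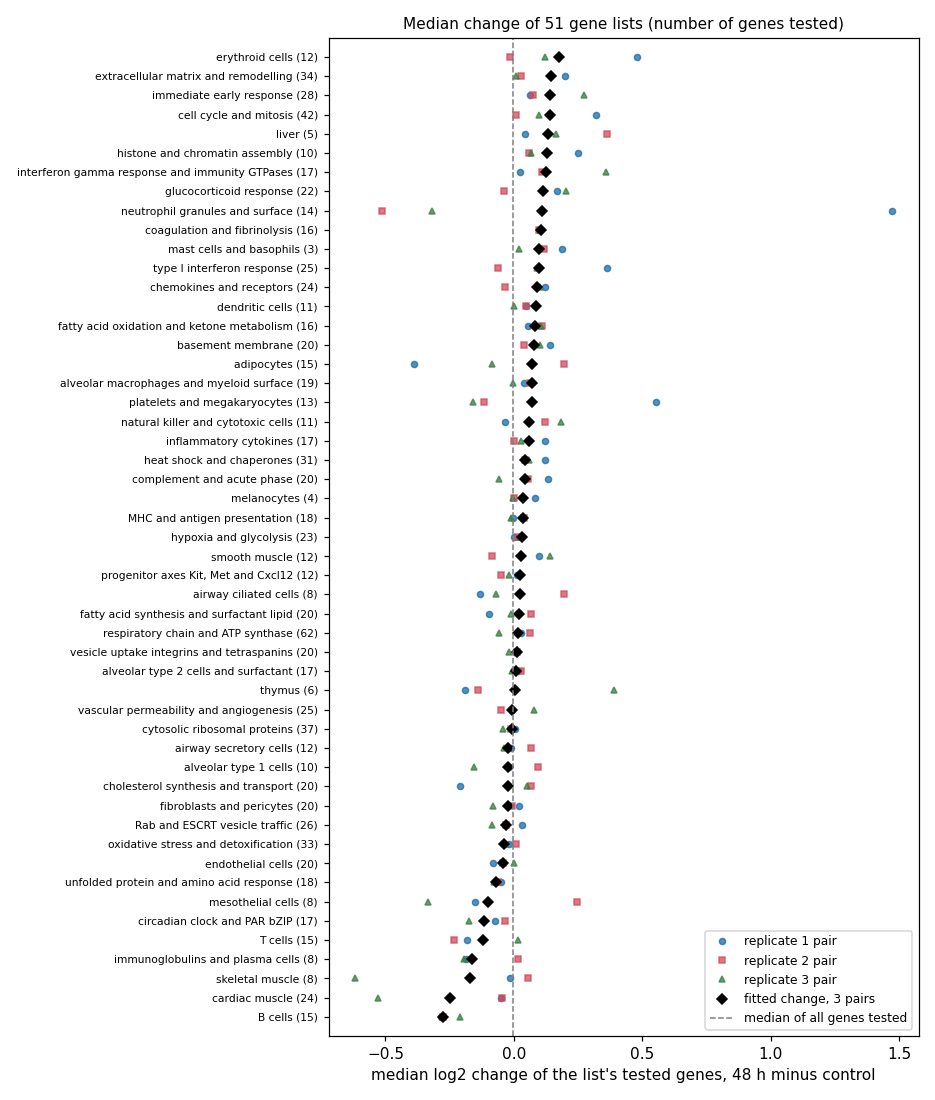
Median log2 difference, 48 h minus control (horizontal axis), over the tested genes of each of 51 lists (vertical axis, number tested in brackets). Diamonds give the fitted value, coloured symbols the 3 pairs and the dashed line the median of all genes, -0.00506; the 3 pairs lie close together for B cells and far apart for neutrophil genes, which run from -0.514 to 1.47.

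B cell genes lay lower at 48 h in each pair. B cells carry an antigen receptor whose signal passes through Cd79a and Cd79b to the adaptor Blnk, and Pou2af1 is a B cell coactivator of octamer-binding transcription factors. Of 15 tested genes, 13 were lower and 2 higher at 48 h, beside 52.2% lower over all genes. In 10 of them all 3 pairs were lower, beside 12.3% over all genes, and 7 had an unadjusted p under 0.05, beside 1.86%. Ms4a1, the surface protein CD20, read 9.43, 9.77 and 9.50 at 48 h against 9.96, 10.04 and 9.81 in controls, a fold of 0.775 (0.655 to 0.918) and the only member whose groups did not overlap on the probe set used. Its second probe set differed by -0.173 on the log2 scale. Cd79a read 8.14, 9.01 and 8.21 at 48 h against 8.31, 9.28 and 8.91, a fold of 0.769 (0.615 to 0.963). Blnk read 8.06, 8.70 and 8.53 against 8.33, 8.99 and 9.05 in controls, a fold of 0.78 (0.658 to 0.925), and Pou2af1 had a fold of 0.807 (0.693 to 0.94). Cd22, an inhibitory receptor of B cells, differed by -0.332 on the log2 scale. The exceptions were Ebf1, a transcription factor of the B lineage that other lung cells also express, at 0.241, and Cd72 at 0.0665. H2-Oa, a modulator of class II antigen loading found in B cells, had a fold of 0.784 (0.672 to 0.915). The list stayed at 12 or 13 lower of 15 with any pair left out, with medians between -0.318 and -0.276. Signals of the 15 genes summed to between 3186 and 4913 at 48 h and between 4165 and 6240 in controls, and both lowest sums came from replicate 1.

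The octamer motif is known from immunoglobulin and B cell promoters, so the promoters of the list were searched for it as a description of the members. Promoters here are the 250 bases before and 50 after the start of a gene in RefSeq, build GRCm38.p6. The letters ATTTGCAT or their reverse complement occurred in 1.74% of all 32851 promoters and in 1 of the 14 promoters of tested B cell genes, that of Blnk. It lies at chr19:40994172-40994471 on the minus strand, and the capitals mark the octamer, which begins 130 bases before the start.
Blnk: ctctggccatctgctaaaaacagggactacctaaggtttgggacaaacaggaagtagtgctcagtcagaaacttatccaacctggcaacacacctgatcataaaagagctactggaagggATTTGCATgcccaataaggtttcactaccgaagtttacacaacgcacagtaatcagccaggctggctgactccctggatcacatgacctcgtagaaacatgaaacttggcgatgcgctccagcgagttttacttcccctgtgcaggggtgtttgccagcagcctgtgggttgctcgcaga

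Other lymphocyte genes were lower less uniformly. Igha, the heavy chain constant region of immunoglobulin A, read 8.77, 10.16 and 9.95 at 48 h against 9.54, 10.47 and 10.28, a fold of 0.724 (0.584 to 0.897), and its 2 other tested probe sets differed by -0.385 and -0.326. The immunoglobulin list had 6 of 8 lower with a median of -0.165, although Ighg3, which was not in the list, was higher. T cell genes were lower in 12 of 15 with a median of -0.122, and 4 were lower in all 3 pairs, which is 26.7% beside 12.3% of all genes. Without replicate 2 their median was -0.0693. Icos, a costimulatory receptor, had a fold of 0.855 (0.731 to 0.998) and Il7r, the receptor for interleukin 7, 0.861 (0.739 to 1). Cd247 of the same list went the other way, with a fold of 1.2 (0.983 to 1.48) and no overlap. Ccr7, which guides T cells and dendritic cells to lymph nodes, read 7.70, 7.98 and 8.05 at 48 h against 8.10, 8.32 and 8.09, without overlap. Natural killer and cytotoxic genes ran the other way, with 9 of 11 higher, beside 47.8% of all genes, and a median of 0.0601. Their pair medians were -0.0349, 0.119 and 0.182. Among them Gzmb, a granzyme, had a fold of 1.2 (0.946 to 1.52) and Ccl5 1.15 (0.949 to 1.4). Both were highest in replicate 3, with pair differences of 0.01, 0.16 and 0.62 for Gzmb and 0.05, 0.12 and 0.44 for Ccl5.

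**Figure D4:**
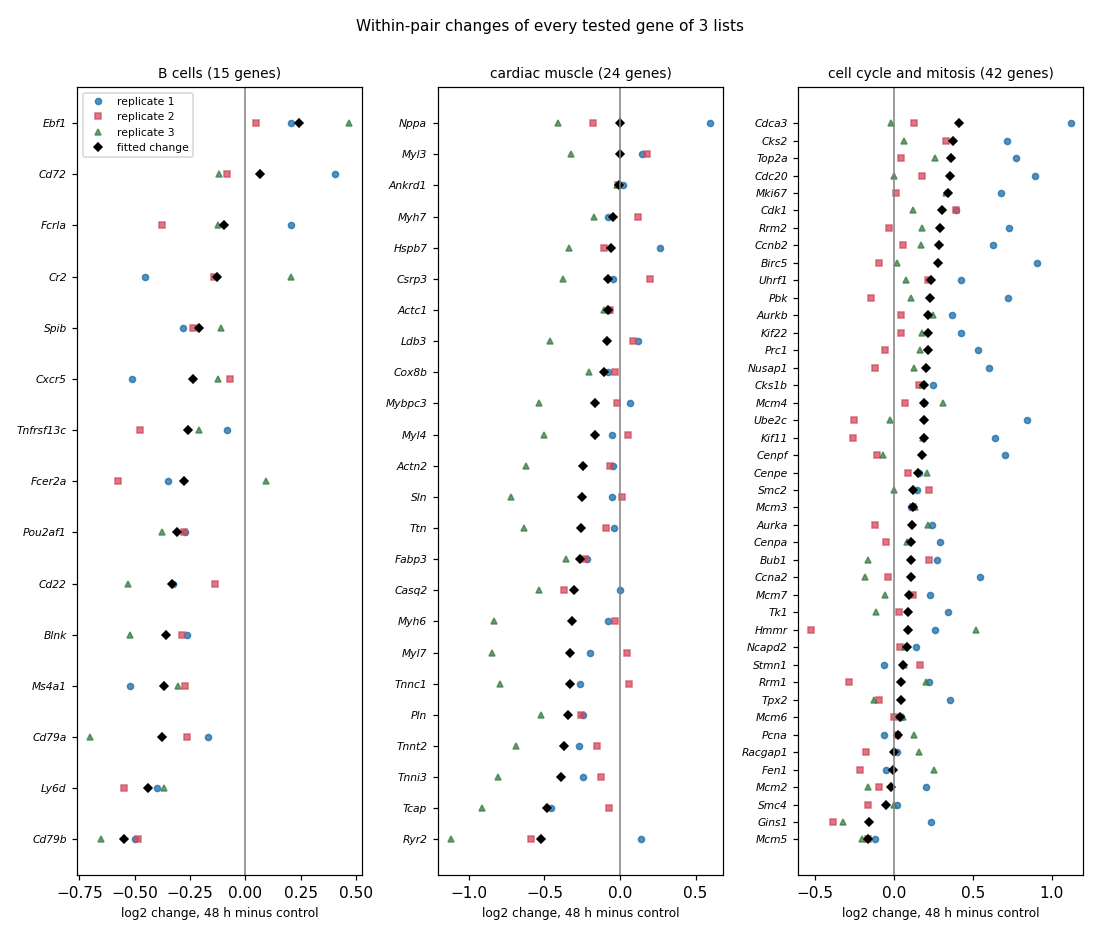
Log2 difference, 48 h minus control (horizontal axes), of every tested gene of the B cell, cardiac muscle and cell cycle lists, with the fitted value as a diamond and the 3 replicate pairs as coloured symbols. B cell genes lie left of 0 in all pairs for 10 of 15 genes, cardiac genes lie left mainly in replicate 3, and cell cycle genes lie right mainly in replicate 1.

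Neutrophil genes differed by pair, not by group. S100a8 and S100a9 form the calcium-binding dimer calprotectin of neutrophils and monocytes. S100a8 read 13.52, 11.49 and 11.58 at 48 h and 12.06, 12.58 and 12.23 in controls. S100a9 read 13.34, 11.15 and 11.14 at 48 h and 11.87, 12.31 and 11.97 in controls. The replicate 1 array at 48 h was the highest of all 6 for both genes, and the other 48 h arrays were below every control. The folds were 0.938 (0.412 to 2.14) and 0.889 (0.375 to 2.1). Mmp8 and Mmp9, metalloproteinases of neutrophil granules, had pair differences of 1.98, -0.53 and -0.53, and of 1.66, -0.50 and -0.49, while a second probe set of Mmp9 had a fitted difference of -0.216. Mpo, myeloperoxidase, had 1.28, -1.01 and -0.32, and Ifitm6 1.82, -0.34 and -0.20. The median over the 14 tested genes was 1.47, -0.514 and -0.32 in the 3 pairs, and 13 of 14 were lower at 48 h without replicate 1, against 5 of 14 with it. Their signals summed to 42230, 18230 and 20430 at 48 h and to 21580, 27600 and 24740 in controls. Platelet genes were likewise higher at 48 h in replicate 1 alone, with medians of 0.551, -0.115 and -0.159. Whether these arrays differ in blood cells held in the lung was not tested.

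Matrix genes lay higher at 48 h, most of them slightly, with the largest pair median in replicate 1. The pair medians were 0.2, 0.0281 and 0.00939. Of 34 tested matrix and remodelling genes 26 were higher, beside 47.8% of all genes. In 9 of the 34 (26.5%) all 3 pairs were higher, beside 11.6% of all genes. An unadjusted p under 0.05 was found for 4 that were higher, beside 1.73% of all genes. Lox, lysyl oxidase, which crosslinks collagen and elastin, read 10.09, 8.95 and 9.11 at 48 h against 9.54, 8.71 and 8.57 in controls, higher in each pair with overlapping groups. Its fold was 1.36 (1.14 to 1.63, unadjusted p = 0.00627, adjusted p = 0.999 in limma). A second probe set had a log2 difference of 0.248 (unadjusted p = 0.231 in limma). Its deposited signals were 467.7, 225.3 and 391.5 at 48 h and 471.4, 244.6 and 224.4 in controls, higher only in replicate 3. Loxl1, a related enzyme for elastic fibres, had a fold of 1.21 (1.01 to 1.45). Thbs1, thrombospondin 1, is an activator of TGF-beta and an inhibitor of angiogenesis. It read 9.47, 9.15 and 9.69 at 48 h against 9.16, 8.76 and 8.74, a fold of 1.47 (1.14 to 1.89). Its second probe set differed by 0.218 on the log2 scale. Deposited signals of that probe set were 290.2, 173.3 and 260.1 at 48 h and 278.5, 187.7 and 163.8 in controls, lower in replicate 2. Ccn1, a matricellular protein induced by mechanical and serum signals, read 10.91, 10.80 and 10.91 at 48 h against 10.83, 10.27 and 10.16, a fold of 1.37 (1.07 to 1.76). Fn1, fibronectin, read 11.40, 11.53 and 11.50 at 48 h against 11.14, 11.35 and 11.58, a fold of 1.09 (0.906 to 1.3) with overlap. A second, dimmer probe set of Fn1 had a log2 difference of 0.241 (unadjusted p = 0.0432 in limma). The collagen genes Col1a1, Col3a1 and Col5a2 had folds of 1.17 (0.924 to 1.49), 1.16 (0.974 to 1.37) and 1.18 (0.987 to 1.41). Their second probe sets, detected on all 6 arrays, had log2 differences of 0.418 for Col1a1 (unadjusted p = 0.00804 in limma), 0.495 for Col3a1 (unadjusted p = 0.0168) and -0.0481 for Col5a2. Of 20 basement membrane genes 16 were higher, among them Col15a1 at 1.23 (1.06 to 1.43), Col18a1, the source of endostatin, at 1.2 (0.995 to 1.45), and Col4a1 at 1.11 (0.953 to 1.28), each without overlap. Without replicate 1 the matrix list had 20 of 34 higher and a median of 0.0475, against 0.143 with all pairs, and the basement membrane list 11 of 20. Members of the fibroblast list, which makes much of the matrix, were higher in 8 of 20.

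**Figure D5:**
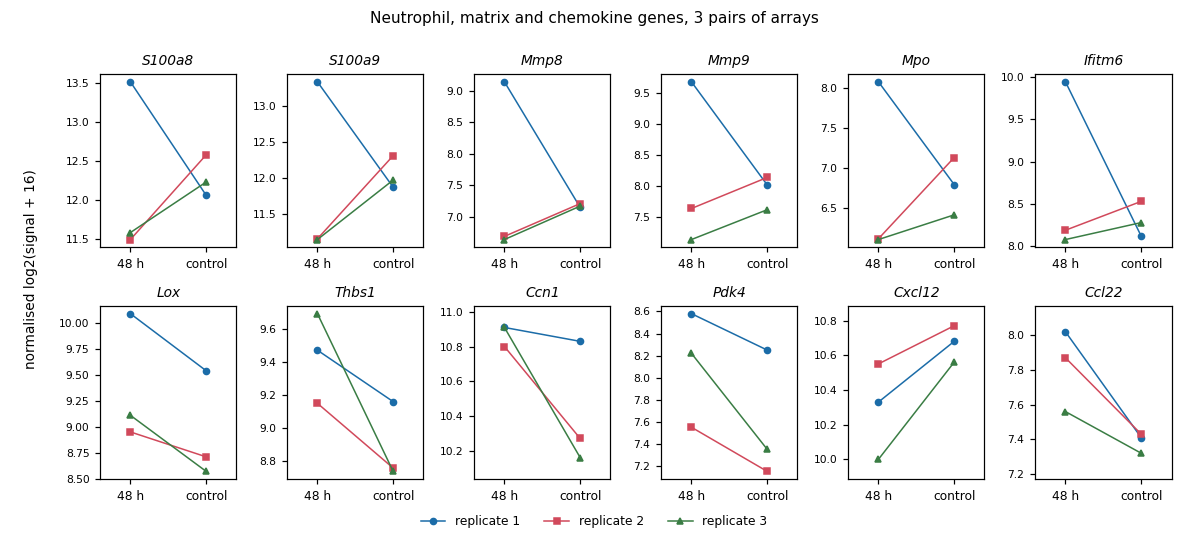
Normalised log2(signal + 16) (vertical axes, each panel with its own range) at 48 h (left) and in control (right) for 6 neutrophil genes in the upper row and for Lox, Thbs1, Ccn1, Pdk4, Cxcl12 and Ccl22 below, with a line for each replicate pair. In the upper row replicate 1 slopes against the other pairs, while in the lower row the 3 pairs slope the same way. The genes shown are a selection, each on its brightest tested probe set. Of 34 tested matrix genes 9 were higher in all 3 pairs, and the pair differences of Fn1, not shown, were 0.26, 0.18 and -0.08.

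Lists of the vascular and progenitor axes had medians of -0.00703 and 0.0251, with single members in both directions. Vegfa, the main permeability and growth factor of endothelium, had a fold of 1.04 (0.844 to 1.29), with a second probe set at -0.363. Vegfc, the lymphatic growth factor, read 7.98, 7.61 and 7.74 at 48 h against 8.38, 7.81 and 8.13, a fold of 0.795 (0.676 to 0.935). Kit, the stem cell factor receptor of mast cells and progenitors, had a fold of 1.1 (0.852 to 1.41). Runx1 of the progenitor list had log2 differences of 0.221, 0.634 and -0.178 on its tested probe sets. Tnf and Met were not tested, as neither had a probe set detected on all arrays of a group. The vascular list had 11 higher and 14 lower of 25, and the endothelial list 15 lower of 20 with a median of -0.0429. Flt1 of both lists was lower on each tested probe set, at -0.118, -0.293 and -0.321 on the log2 scale. Cldn5, the tight junction protein of endothelium, had a fold of 1.03 (0.885 to 1.19), Pecam1 1.06 (0.867 to 1.3), and Icam2 0.905 (0.776 to 1.06) without overlap. Cxcl12, the chemokine that retains leukocytes and progenitors through Cxcr4, read 10.33, 10.55 and 10.00 at 48 h against 10.68, 10.77 and 10.56, without overlap, a fold of 0.771 (0.645 to 0.922). Its second probe set, detected on all 6 arrays, had a log2 difference of 0.000405, so the 2 probe sets of that gene disagree.

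Chemokine and cytokine genes went both ways. Of 24 chemokine genes 15 were higher and 9 lower. Ccl22, which draws regulatory and helper T cells and is made by dendritic cells and macrophages, read 8.02, 7.87 and 7.56 at 48 h against 7.41, 7.43 and 7.32, without overlap, a fold of 1.35 (1.12 to 1.62). Ccl12, a monocyte chemokine, had a fold of 0.729 (0.606 to 0.878), and Ackr1, the chemokine scavenger of venules and red cells, 1.32 (1.07 to 1.63). Among 17 cytokine genes 10 were higher. Lif, a cytokine of the interleukin 6 family, read 6.64, 6.72 and 7.22 at 48 h against 6.51, 6.39 and 6.33, a fold of 1.36 (1.03 to 1.8), and Csf2, the granulocyte macrophage growth factor, had a fold of 0.768 (0.585 to 1.01). In the complement and acute phase list, C2 had a fold of 0.822 (0.683 to 0.989) and C3ar1, a complement receptor of myeloid cells, 1.17 (1.01 to 1.36).

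Interferon genes were mostly higher, in different pairs for the 2 lists. Type I interferon acts through a response element bound by the STAT and IRF factors, and interferon gamma induces immunity-related GTPases that attack intracellular pathogens. Of 25 tested type I genes 22 were higher, beside 47.8% of all genes, and 8 (32%) in all 3 pairs, beside 11.6%. The list median was 0.0975 and the pair medians were 0.364, -0.0612 and 0.0879. Rsad2, the antiviral enzyme viperin, read 9.36, 8.79 and 8.68 at 48 h against 8.66, 8.73 and 8.19, a fold of 1.34 (1.05 to 1.7). Mx1, an antiviral GTPase, had a fold of 1.29 (1.06 to 1.57) and Oasl2, a member of the oligoadenylate synthetase family, 1.26 (1.02 to 1.55), both without overlap. Without replicate 1 the list had 12 higher and 13 lower, and that pair is also the one in which neutrophil genes were higher; their part in the result was not tested. Of 17 interferon gamma genes 13 were higher, with pair medians of 0.0232, 0.11 and 0.359, and 14 were higher without replicate 1. Igtp, an immunity-related GTPase, read 10.35, 10.50 and 10.58 at 48 h against 10.29, 9.96 and 10.02, a fold of 1.31 (1.04 to 1.64) without overlap, and Gbp6, a guanylate-binding protein, had a fold of 1.38 (1.09 to 1.75). Class I and II presentation genes were higher in 10 of 18, with a median of 0.0339.

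The interferon-stimulated response element was searched as GAAA, any 2 bases and GAAA on either strand. It occurred in 10 of 20 promoters of tested type I genes and in 5 of 16 of tested interferon gamma genes, beside 3.44% of all promoters. The promoters of Rsad2 (chr12:26456403-26456702, minus strand) and Igtp (chr11:58199306-58199605, plus strand) are shown with the match in capitals, which in Rsad2 reads on the opposite strand. It begins 120 bases before the start of Rsad2 and 34 before that of Igtp.
Rsad2: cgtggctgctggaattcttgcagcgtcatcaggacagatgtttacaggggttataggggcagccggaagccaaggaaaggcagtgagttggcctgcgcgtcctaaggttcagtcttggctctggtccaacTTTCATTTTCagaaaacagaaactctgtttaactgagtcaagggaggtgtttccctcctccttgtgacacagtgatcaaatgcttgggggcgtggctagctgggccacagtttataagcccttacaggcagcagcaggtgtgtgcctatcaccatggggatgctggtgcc
Igtp: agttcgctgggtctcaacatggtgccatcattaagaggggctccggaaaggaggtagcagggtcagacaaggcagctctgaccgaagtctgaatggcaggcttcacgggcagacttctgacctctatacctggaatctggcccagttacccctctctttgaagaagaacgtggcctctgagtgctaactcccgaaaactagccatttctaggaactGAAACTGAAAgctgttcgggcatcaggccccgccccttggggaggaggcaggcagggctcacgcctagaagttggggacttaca

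Cell division genes were higher in most members and largely in replicate 1. Of 42 tested genes 37 were higher, 16 in all 3 pairs beside 11.6% of all genes, and 8 without overlap beside 2.28%. An unadjusted p under 0.05 was found for 2, which is 4.76% beside 1.73% of all genes. Cdk1, the kinase that drives entry into mitosis, read 6.65, 6.93 and 6.94 at 48 h against 6.26, 6.53 and 6.82 in controls, a fold of 1.23 (1.04 to 1.47). Cks2, a small subunit of that kinase, read 9.38, 9.22 and 8.89 at 48 h against 8.66, 8.89 and 8.82, a fold of 1.29 (1.01 to 1.65) without overlap. Mki67, the proliferation antigen Ki-67, had a fold of 1.27 (0.99 to 1.62) and Top2a, topoisomerase II alpha, 1.28 (0.984 to 1.68). The pair medians were 0.32, 0.00929 and 0.097, and without replicate 1 the list had 28 of 42 higher. Chromatin assembly genes gave 9 of 10 higher, with Asf1b at 1.26 (1.06 to 1.5), Hells at 1.25 (1.04 to 1.49) and Chaf1b at 1.23 (1.02 to 1.47). Genes of erythroid cells, whose precursors divide rapidly, were higher in 10 of 12 but in 6 of 12 without replicate 1. CCAAT boxes, known from promoters of the G2 and M phases, occurred on either strand in 33 of 38 promoters of tested cell division genes and in 37.4% of all promoters. The promoter of Cdk1 (chr10:69352863-69353162, minus strand) holds 3, shown in capitals as ATTGG, the opposite strand of CCAAT.
Cdk1: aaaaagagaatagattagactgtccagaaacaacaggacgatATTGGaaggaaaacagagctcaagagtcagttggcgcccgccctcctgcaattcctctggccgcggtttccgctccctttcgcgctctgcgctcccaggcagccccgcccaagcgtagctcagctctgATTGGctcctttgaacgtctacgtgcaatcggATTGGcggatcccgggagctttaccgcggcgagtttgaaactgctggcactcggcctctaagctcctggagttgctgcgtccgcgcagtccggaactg

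Clock genes were lower in most members, by small amounts. The circadian clock turns on Per, Nr1d and the PAR bZIP genes Dbp, Tef and Hlf through E-boxes and D-boxes, so their level depends on the hour of collection. Of 17 tested genes 13 were lower, beside 52.2% of all genes, and 8 (47.1%) in all 3 pairs, beside 12.3%. The list median was -0.115. Hlf read 8.32, 9.03 and 8.67 at 48 h against 8.71, 9.35 and 9.03, a fold of 0.78 (0.672 to 0.906). Nr1d2, a heme-sensing repressor of the clock, read 10.77, 11.96 and 12.04 at 48 h against 11.36, 12.28 and 12.22, a fold of 0.778 (0.643 to 0.942). Per3 read 7.86, 9.83 and 9.75 at 48 h against 8.16, 9.85 and 10.12, and Tef 10.70, 11.72 and 11.41 against 10.86, 11.76 and 11.83. A second probe set of Per3 had the opposite sign, at 0.106. In each of these 4 genes both replicate 1 arrays were the lowest of their group, in Nr1d2, Per3 and Tef by more than the groups differed. Clock itself went the other way on its brighter probe set, by 0.246 on the log2 scale with pairs of -0.02, 0.25 and 0.51. Its second probe set was at -0.0186. The sources used here do not give the hour of collection of each replicate, and the part of that hour in the result was not tested. The E-box letters CACGTG occurred in 4 of 22 promoters of tested clock genes (a gene can have more than 1) and in 7.15% of all promoters, and the D-box letters TTATGTAA on either strand in 1 of 22 and in 0.938%. An E-box of Tef (chr15:81802423-81802722, plus strand) and both D-boxes of Per3 (chr4:151044616-151044915, minus strand) are in capitals.
Tef: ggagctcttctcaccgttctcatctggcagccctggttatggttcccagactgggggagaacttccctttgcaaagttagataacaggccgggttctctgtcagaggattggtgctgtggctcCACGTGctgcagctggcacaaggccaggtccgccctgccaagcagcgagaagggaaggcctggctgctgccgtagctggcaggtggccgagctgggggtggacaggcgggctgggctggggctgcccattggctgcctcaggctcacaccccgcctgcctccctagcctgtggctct
Per3: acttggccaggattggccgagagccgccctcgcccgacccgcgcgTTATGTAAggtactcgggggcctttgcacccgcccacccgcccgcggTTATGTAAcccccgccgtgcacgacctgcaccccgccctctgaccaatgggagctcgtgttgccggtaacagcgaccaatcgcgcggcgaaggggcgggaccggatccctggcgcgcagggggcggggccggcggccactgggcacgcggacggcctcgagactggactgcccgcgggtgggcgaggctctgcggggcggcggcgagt

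Immediate early, glucocorticoid and fatty acid genes were higher in most members of each list, where 47.8% of all genes were higher. These groups respond within hours to handling, stress hormone and fasting, and the part of these in the result was not tested. Of 28 immediate early genes 21 were higher, with Maff at 1.23 (1.02 to 1.48), Fosb at 1.44 (0.972 to 2.13) and Klf2 at 1.17 (0.963 to 1.43). Of 22 glucocorticoid genes 17 were higher, with pair medians of 0.168, -0.0391 and 0.203. Pdk4, which spares glucose by blocking pyruvate dehydrogenase and belongs to the fatty acid list as well, read 8.58, 7.55 and 8.22 at 48 h against 8.25, 7.15 and 7.35, a fold of 1.45 (1.16 to 1.81). Cdkn1a, the cell cycle inhibitor p21, had a fold of 1.25 (1.05 to 1.49), Errfi1, a feedback inhibitor of the EGF receptor, 1.21 (0.998 to 1.47), and Mt2, a metallothionein, 1.24 (0.993 to 1.55). Of 16 fatty acid oxidation genes 14 were higher with a median of 0.0809, with 16 higher without replicate 1 and 11 without replicate 2. Among lipid synthesis genes Me1, malic enzyme, read 9.59, 9.80 and 9.64 at 48 h against 9.85, 9.94 and 9.98, a fold of 0.845 (0.72 to 0.992) without overlap on the brighter probe set, and its second probe set was at 0.0901 on the log2 scale. Respiratory chain genes were higher in 38 of 62 with a median of 0.0175, and ribosomal protein genes in 18 of 37 with a median of -0.0089.

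Lists of epithelial and mesothelial cells had medians from -0.101 in mesothelial cells to 0.0239 in ciliated cells. Alveolar type 2 genes were higher in 9 of 17, alveolar type 1 genes in 4 of 10, secretory airway genes in 5 of 12 and ciliated genes in 5 of 8. Mesothelial genes were higher in 2 of 8, with pair medians of -0.153, 0.246 and -0.334. Without replicate 2 the mesothelial genes were higher in 0 of 8, with a median of -0.224, and the type 1, secretory and ciliated genes in 2 of 10, 2 of 12 and 2 of 8. Sftpc and Sftpa1, surfactant proteins, both had folds of 1.01 (0.869 to 1.17), and Scgb1a1, the secretoglobin of club cells, 0.979 (0.842 to 1.14). Ager, the receptor that marks type 1 cells, had a fold of 0.977 (0.824 to 1.16). Among type 1 genes Rtkn2 was lower in each pair, with a fold of 0.822 (0.695 to 0.973). Macrophage genes were higher in 13 of 19. Cx3cr1, a receptor of patrolling monocytes, had a fold of 1.25 (0.985 to 1.6), and Ccr2, a receptor of inflammatory monocytes, 1.24 (0.905 to 1.7). On its brightest probe set Ccr2 had pair differences of 0.85, -0.04 and 0.12. Fabp1 of the same list went the other way, with a fold of 0.853 (0.65 to 1.12). Genes for vesicle uptake by integrins and tetraspanins were higher in 10 of 20 with a median of 0.0122. Genes of Rab and ESCRT traffic, which sort and release vesicles, were lower in 16 of 26, with Rab5b, a GTPase of early endosomes, at 0.75 (0.575 to 0.978).

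Lung markers were detected on all 6 arrays, and some markers of heart, skeletal muscle, fat, liver and thymus were detected as well. The lung markers Sftpc, Sftpb, Sftpa1, Scgb1a1, Ager, Aqp5, Cldn5 and Pecam1 were detected on all 6, with deposited signals from 2652.2 to 14416.2 at 48 h and from 2173.4 to 15127.0 in controls. The heart genes Myh6, Tnnt2, Actc1 and Nppa were also detected on all 6. Of 24 cardiac genes 22 were lower at 48 h and 2 higher, beside 52.2% lower over all genes. In 11 of the 24 (45.8%) all 3 pairs were lower, beside 12.3% over all genes. Deposited signals of the 24 cardiac genes summed to 22590, 22740 and 11040 at 48 h and to 24040, 23250 and 16040 in controls. Both replicate 3 arrays were the lowest of their group, and without replicate 3 the median was -0.0577, against -0.25 with all pairs. Tnnt2, cardiac troponin T, read 10.57, 10.64 and 9.51 at 48 h against 10.84, 10.80 and 10.20, a fold of 0.773 (0.619 to 0.966). Ryr2, the calcium channel of the cardiac sarcoplasmic reticulum, differed by -0.523 on the log2 scale with pairs from -1.12 to 0.136. Cardiac genes are expressed in mouse pulmonary veins as well as in the heart, and the part of dissection in these values was not tested. Of the skeletal genes, Ckm, muscle creatine kinase, was detected on 2 of 3 arrays at 48 h and 3 of 3 in controls, with signals of 107.9 to 381.7 and 180.5 to 411.7, while Acta1 and Myh4 were detected on 0 arrays. Adipoq, the adipocyte hormone adiponectin, was detected on all 6, with 382.6 to 411.9 at 48 h and 256.9 to 814.7 in controls. Of the liver genes, Alb, albumin, was detected on all 6 at 33.3 to 57.3 at 48 h and 24.6 to 38.2 in controls, while Apoa1 and Ttr were detected on 0. Of the thymus genes, Dntt was detected on 3 of 3 arrays at 48 h and 2 of 3 in controls. Its signals were 31.6 to 44.7 and 21.4 to 46.8. Rag1 was detected on 1 array at 48 h and 0 in controls, and Ptcra on 0. Of the melanocyte genes, Dct and Pmel were detected on 0 arrays. Tyrp1 was detected on 0 arrays by 2 of its probe sets and on 1 of 6 by another, and Tyr, by its brightest probe set, on 2 of 3 at 48 h and 1 of 3 in controls with signals up to 22.8 and 21.2.

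The 48 h lungs were also set against the 24 h lungs in a fit of all 9 arrays. None of 15886 probe sets passed an adjusted p of 0.05, the smallest being 0.689 in limma, and 883 (5.56%) had an unadjusted p under 0.05. Among genes, 244 (2.65%) were higher and 204 (2.21%) lower at 48 h at that level. Matrix genes gave 9 of 34 higher and 0 lower, with a list median of 0.196 between the times. Thbs1 was higher at 48 h than at 24 h by 0.64 on the log2 scale (unadjusted p = 0.0013, adjusted p = 0.779 in limma), Col1a1 by 0.55 and Lox by 0.37. Cell cycle genes gave 6 of 42 higher and type I interferon genes 4 of 25. Gbp6 was higher at 48 h by 0.81 (adjusted p = 0.779 in limma) and Oasl2 by 0.44 (adjusted p = 0.779). Against control, Gbp6 differed by -0.35 at 24 h and 0.47 at 48 h, and Col1a1 by -0.32 and 0.23. In Gbp6 and Col1a1, part of the difference between the times thus came from lower values at 24 h. B cell genes gave 4 of 15 lower and 0 higher, with a median of -0.223, and Ms4a1 was lower by 0.37 on the log2 scale with an adjusted p of 0.877. Both times share the control arrays, so their differences from control are not independent. Set side by side, the list medians against control were -0.0623 at 24 h and -0.278 at 48 h for B cells, -0.061 and 0.144 for matrix, -0.0162 and 0.141 for cell cycle, and -0.216 and -0.249 for cardiac muscle in that fit. Igha was below control by 1.07 at 24 h and by 0.47 at 48 h on the log2 scale.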

How the data were processed

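Per the file headers, each deposited sample file holds 22690 probe sets, with their signal intensity and a p-value for detection. The trimmed mean of the deposited signals, as computed here, was 500.1 on each of the 6 arrays, so they were deposited on a common scale. The deposited intensity is linear; the sources used here name no software, background or summary method. Per the labels, the chip is one with more transcripts than the files hold, so the chip type is uncertain. Signals of the 6 arrays were turned to log2(signal + 16) and quantile normalised, without 64 control probe sets. Probe sets were kept where the deposited detection p-value was under 0.05 on all arrays of a group, and fitted with limma 3.58.1 in R 4.3.3 with the replicate number as a block (lmFit, eBayes, two-sided, Benjamini-Hochberg). Arrays were paired by number, and same-numbered arrays deviated together from their group means (r = 0.598, 0.462 and 0.276). Among unlike-numbered arrays r ran from -0.511 to 0.279, the highest for 48 h replicate 2 with control replicate 3. Deviations from a mean of 3 arrays depend on each other, so these values do not settle the pairing. The array count limits precision.

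Genes were named through the platform annotation: 20393 probe sets had 1 symbol, 691 several and 1606 none, and those with several or none were not named. A gene was read from the brightest of its tested probe sets, by the mean over the 6 arrays. Named genes are those past the test, of which there were 0, then the 12 highest and 12 lowest by moderated t and the 8 largest differences each way with the same sign in all pairs, 9 genes of the niche literature, 5 members of each list with the smallest p, and tissue markers; Cd22, Ebf1, Cd72 and Ryr2 were added after their values were seen, as were the promoters shown. The members and lists were chosen with earlier results of these data known, so lists carry counts and medians and no test. Alternatives covered the block, arrays in the fit, offset, scaling, filter, averaging of probe sets, the series table's labels and each replicate left out. Columns of per-sample values left unused numbered 0. The fit was tested on simulated data. Promoters came from RefSeq, GRCm38.p6.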

Additional observations from a re-analysis of the deposited data

Results flagged for a closer look

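In Dgat2, which makes triglyceride, every 48 h array was below its control, by 0.08 to 0.27 on the log2 scale, while every 24 h array was above it, by 0.06 to 0.38. The difference between the times, 48 h minus 24 h, was -0.35, with an unadjusted p of 0.00544 and an adjusted p of 0.779 in limma over all probe sets. A second tested probe set of Dgat2 had the opposite sign at 48 h. In Cd34, a surface protein of endothelium and progenitors, every 48 h array was above its control, by 0.03 to 0.2, and every 24 h array below it, by 0.01 to 0.15. The difference between the times was 0.18, with an unadjusted p of 0.0726 and an adjusted p of 0.884. Neither difference passed the test, and both times share the control arrays.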

How the results depend on the processing

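The count of probe sets past an adjusted p of 0.05 was 0 in the fit with the replicate block and in all 14 alternatives, with smallest adjusted p-values from 0.728 to 1. At an unadjusted p under 0.05, 648 probe sets became 218 with no replicate block, 217 with all 9 arrays and no replicate block, 1016 with no filter on dim probe sets and 428 genes with probe sets averaged; leaving out a replicate gave 616 to 751. The other alternatives kept that count within 1.5 times, between 589 and 919. With the deposited scaling alone, 9.81% of genes were higher and 14.8% lower in all 3 pairs, against 11.6% and 12.3%. List medians changed sign for 10, 7 and 10 of 51 lists without replicate 1, 2 or 3, and single named genes for 21, 10 and 25 of 284. With the series table's own labels, 19 lists lay above the median of all genes. With 3 arrays a group, the median standard error of a log2 difference was 0.105, and probe sets near background are limited by it.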
